A study of Mus musculus with 6 samples.

Results

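The genes described here carry out cholesterol synthesis from acetyl-CoA, or control it through the SREBP transcription factors. They are 28 mouse genes chosen by symbol: 20 enzymes of the pathway, the sterol carrier gene Stard4, and 7 genes of SREBP control. Each gene was represented by its brightest probe set annotated with that symbol alone. By this rule 26 of the 28 genes had a row, and all 26 passed the level filter and were tested among 12212 genes. Acat2 and Idi1 did not meet the rule, and of these genes only the promoter windows were counted. Steps of the pathway outside the 28 genes were not analysed here. The samples were BV2 cells, a retrovirally immortalised mouse microglial line, wild type by their labels. The 3 samples of the group called Tel+GW+LPS had 2 h of telmisartan with GW9662 before 1 h of lipopolysaccharide (LPS). The 3 samples of the group called Tel+LPS had 2 h of telmisartan alone before the same 1 h of LPS. Telmisartan blocks the angiotensin II type 1 receptor and partially activates the nuclear receptor PPARG, GW9662 binds PPARG irreversibly and blocks it, and LPS activates TLR4. Telmisartan and LPS were thus common to both groups, and the comparison asks how adding GW9662 to them was reflected in sterol gene transcripts. The labels give no doses, and a cell line is a limited model of microglia in tissue. They call the samples of a group independent without naming separate cultures, so p-values reflect only how these samples vary, and that variation may be technical.

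Cells build cholesterol from acetyl-CoA through mevalonate, a series of isoprenoid diphosphates, squalene and lanosterol. Most enzymes of this route are transcribed under SREBP2, and SREBP1 serves mainly fatty acid synthesis. When sterol in the membrane of the endoplasmic reticulum is scarce, SCAP escorts the SREBP precursors to the Golgi, where the proteases encoded by Mbtps1 and Mbtps2 release the active factor. When sterol is plentiful, INSIG proteins hold SCAP and the precursor back. In macrophages and microglia, sterol synthesis is known to be linked to inflammatory signalling and to interferon responses.

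Levels are log2 values of the robust multi-array average (RMA), and differences are Tel+GW+LPS minus Tel+LPS, so that a difference of 0.19 is a ratio of 1.14. Levels of different probe sets were not set against each other, because probes differ in brightness. Pairs of the 6 arrays had correlations across tested genes between 0.990 and 0.996. Replicate 2 of Tel+GW+LPS and replicate 3 of Tel+LPS stood apart from the other 4 arrays on the first principal component of the tested genes, which held 42.8% of the variance. Their scores were 7.55 for the Tel+GW+LPS array and 14.6 for the Tel+LPS array, and those of the other arrays ran from -8.15 to -0.98. Of 8 microglia and macrophage markers, 8 lay above the level filter of 6.15, and their mean log2 level was 10.38 to 10.41 in Tel+GW+LPS and 10.34 to 10.50 in Tel+LPS. Of 4 lymphocyte markers 0 lay above it, of 5 astrocyte markers 2, of 5 neuron markers 2, of 5 fibroblast markers 2, and of 4 oligodendrocyte markers 3. Their part in the results below was not tested. Fewer cells and less RNA per cell cannot be told apart in these bulk samples.

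The sterol genes differed little between the groups. The 26 differences ran from -0.053 for Stard4 to 0.19 for Mvd, with 17 positive and 9 negative. In limma, 0 of 26 passed the threshold of an adjusted p of 0.05, beside 0.0246% of all genes tested that passed higher with GW9662 and 0.0164% that passed lower. The adjusted p of the members ran from 0.994 to 0.999. At an unadjusted p under 0.05 there were 2 members higher with GW9662, Mvd and Lss, beside 1.66% of all genes, and 0 lower, beside 2.78% of all genes. The groups did not overlap in 4 members higher with GW9662, namely Mvd, Msmo1, Sc5d and Srebf1, beside 4.01% of all genes, and in 1 lower, Ebp, beside 5.36% of all genes. The median difference of the members was 0.055, beside -0.019 over all genes tested, and 65.4% of the members were positive, beside 41.2% of all genes. Without replicate 2 of Tel+GW+LPS the median of the members was 0.016, with 14 positive, and without both arrays that stood apart it was 0.023, with 17 positive. Without replicate 1 of Tel+GW+LPS it was 0.066, with 21 positive. After median centring of each array it was 0.070, with 18 positive, beside -0.0039 over all genes. After repeated quantile normalization it was 0.087, with 19 positive, beside 0.0014 over all genes. The intervals of the differences (95%) lay within 0.5 on either side of 0 for 26 of 26 members, beside 11806 of the 12212 genes tested. The outermost bounds of the members were -0.32 and 0.39.

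**Figure D1:**
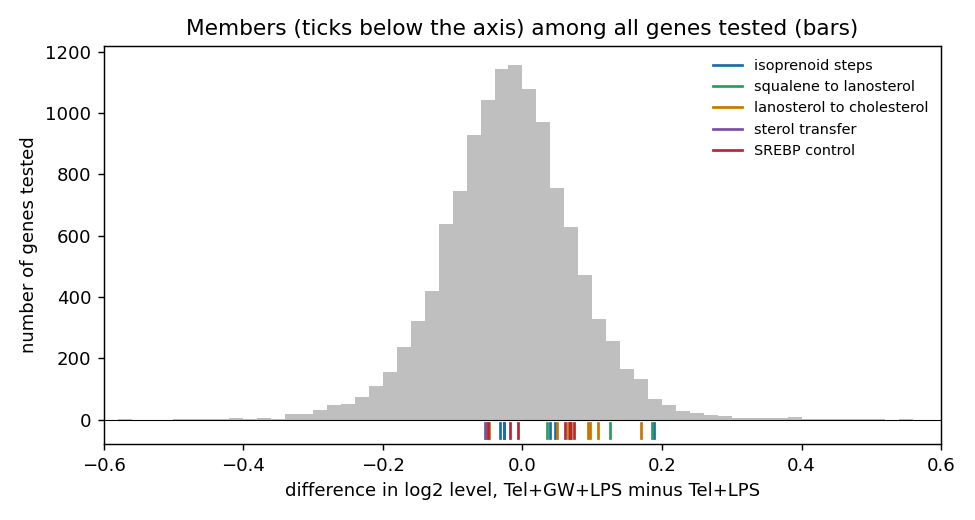
Distribution of the differences in log2 level, Tel+GW+LPS minus Tel+LPS (x axis), over the 12212 genes tested (grey bars, number of genes on the y axis). Each coloured tick below the axis is 1 of the 26 sterol genes, coloured by its place in the pathway. The ticks lie between -0.053 and 0.19, within the main body of the distribution, and a few genes further out than the axis are not drawn.

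Promoter windows of 4 members are shown. Mvd and Lss had the smallest unadjusted p of the members in limma. Hmgcs1 and Insig1 were highest in each group on the array that stood apart, an order that Lss had too. The windows are RefSeq sequences of build GRCm38.p6, from 250 bases before to 50 bases after a transcript start, written 5′ to 3′ on the strand of the gene. They lie at chr8:122443373-122443672, minus strand, for Mvd, at chr10:76531355-76531654, plus strand, for Lss, at chr13:119690101-119690400, plus strand, for Hmgcs1, and at chr5:28071162-28071461, plus strand, for Insig1. Capitals mark matches, on either strand, to a sterol regulatory element TCACNCCAC, to the NF-Y box CCAAT, or to the Sp1 box GGGCGG, and no matches overlap in these windows.
Mvd: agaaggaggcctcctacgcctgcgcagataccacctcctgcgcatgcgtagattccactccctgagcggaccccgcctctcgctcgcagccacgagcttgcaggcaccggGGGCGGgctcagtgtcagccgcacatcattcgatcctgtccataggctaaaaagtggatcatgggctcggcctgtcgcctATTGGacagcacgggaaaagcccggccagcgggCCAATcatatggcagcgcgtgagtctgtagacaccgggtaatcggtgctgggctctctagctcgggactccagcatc
Lss: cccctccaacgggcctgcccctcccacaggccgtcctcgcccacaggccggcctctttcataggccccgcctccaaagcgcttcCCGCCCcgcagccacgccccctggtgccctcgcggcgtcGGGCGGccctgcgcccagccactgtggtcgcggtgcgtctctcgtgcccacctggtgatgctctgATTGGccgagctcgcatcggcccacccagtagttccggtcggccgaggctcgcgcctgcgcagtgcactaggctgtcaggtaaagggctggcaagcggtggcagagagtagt
Hmgcs1: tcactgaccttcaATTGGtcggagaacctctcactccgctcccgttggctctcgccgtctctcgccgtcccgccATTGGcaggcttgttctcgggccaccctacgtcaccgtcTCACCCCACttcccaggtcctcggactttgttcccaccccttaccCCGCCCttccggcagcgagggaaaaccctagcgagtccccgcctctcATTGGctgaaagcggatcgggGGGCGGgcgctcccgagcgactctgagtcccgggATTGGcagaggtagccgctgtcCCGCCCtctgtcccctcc
Insig1: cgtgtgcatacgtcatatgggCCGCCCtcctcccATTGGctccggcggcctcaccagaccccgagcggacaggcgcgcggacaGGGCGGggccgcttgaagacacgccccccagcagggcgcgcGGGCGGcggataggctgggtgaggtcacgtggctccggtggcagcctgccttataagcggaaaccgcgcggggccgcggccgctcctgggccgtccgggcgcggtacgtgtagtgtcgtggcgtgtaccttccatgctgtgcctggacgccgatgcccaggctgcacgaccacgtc
The sterol element was matched in 1 member gene, Hmgcs1, as TCACCCCAC starting 137 bases before the start site. Windows were found for 24 of the 28 genes, 32 windows in all, since a gene can have several starts. Fdps, Fdft1, Sqle and Stard4 had no window and were not searched. The sterol element was in 1.24% of all 32851 windows, CCAAT in 37.4% and GGGCGG in 35.7%, and in the 32 member windows the shares were 3.12%, 65.6% and 78.1%. A match describes these letters and not a bound site, and these exact motifs leave aside variant sterol elements.

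The first steps make isoprenoids. Hmgcs1 encodes the cytosolic synthase that makes HMG-CoA. Its log2 levels (probe set 17290173) were 11.36, 11.71 and 11.31 in Tel+GW+LPS and 11.47, 11.38 and 11.63 in Tel+LPS. The groups overlapped, each with 1 high array, and the difference was -0.032 ± 0.12 (SE, n = 3 in each group; adjusted p = 0.997 in limma), with a 95% interval of -0.30 to 0.24. Mvk, the mevalonate kinase gene, had 7.94, 7.96 and 7.97 in Tel+GW+LPS and 8.04, 8.16 and 7.75 in Tel+LPS. The arrays with GW9662 lay within the wider spread of the others, and the difference was -0.026 ± 0.10. Pmvk, which encodes the kinase of the next step, had 9.66, 9.70 and 9.61 in Tel+GW+LPS and 9.59, 9.75 and 9.49 in Tel+LPS, a difference of 0.047 ± 0.08 with overlapping groups.

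Mvd encodes mevalonate diphosphate decarboxylase, which makes isopentenyl diphosphate, the building block of all later products. Its levels (probe set 17513681) were 9.60, 9.49 and 9.71 in Tel+GW+LPS and 9.35, 9.45 and 9.43 in Tel+LPS. The 3 arrays with GW9662 lay above the 3 without, with 9.49 as the lowest with GW9662 and 9.45 as the highest without it. The means were 9.60 ± 0.11 in Tel+GW+LPS and 9.41 ± 0.05 in Tel+LPS (SD, n = 3 in each group), and the difference of 0.19 ± 0.08 (SE), or 1.14-fold, had a 95% interval of 0.014 to 0.36 and an adjusted p of 0.994 in limma (unadjusted p = 0.0378). With 1 array left out it ranged from 0.13 to 0.25, and without both arrays that stood apart it was 0.26. The difference was not past the threshold in any of these fits.

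Fdps and Ggps1 encode the synthases of farnesyl and geranylgeranyl diphosphate, the lipids that anchor small GTPases to membranes. Fdps had 11.48, 11.49 and 11.24 in Tel+GW+LPS and 11.41, 11.44 and 11.24 in Tel+LPS. In both groups replicate 3 was the low array, and the difference was 0.040 ± 0.09. Ggps1 had 9.33, 9.64 and 9.33 in Tel+GW+LPS and 9.40, 9.28 and 9.70 in Tel+LPS. It had the widest spread within groups of the 26 members, with a pooled SD of 0.20, and a difference of -0.026 ± 0.13, or 0.0027 after repeated quantile normalization. Mean levels of the 6 isoprenoid genes, relative to their mean over the arrays, were -0.0064, 0.096 and -0.041 in Tel+GW+LPS and -0.027, 0.0079 and -0.029 in Tel+LPS, so the groups overlapped as a block too.

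From squalene onward the route is committed to sterols. Fdft1 encodes squalene synthase, and its levels were 11.47, 11.41 and 11.46 in Tel+GW+LPS and 11.29, 11.47 and 11.20 in Tel+LPS. Replicate 2 of Tel+LPS lay with the arrays given GW9662, and the difference was 0.13 ± 0.08 (95% interval -0.062 to 0.31). Sqle, the gene of squalene epoxidase, a rate-limiting enzyme, had 10.84, 11.01 and 10.89 in Tel+GW+LPS and 10.91, 10.77 and 10.95 in Tel+LPS. Its groups overlapped widely, with a difference of 0.035 ± 0.08.

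Lss encodes lanosterol synthase, which closes the sterol ring system. Its levels (probe set 17234552) were 9.95, 10.14 and 10.07 in Tel+GW+LPS and 9.85, 9.79 and 9.96 in Tel+LPS. The groups overlapped narrowly, by the 9.95 of 1 array with GW9662 and the 9.96 of 1 without. The means were 10.05 ± 0.10 in Tel+GW+LPS and 9.87 ± 0.09 in Tel+LPS (SD, n = 3 in each group), and the difference was 0.19 ± 0.08 (SE), or 1.14-fold, with a 95% interval of 0.0071 to 0.37 and an adjusted p of 0.994 in limma (unadjusted p = 0.0433). With 1 array left out it ranged from 0.14 to 0.24. Relative to their mean over the arrays, the 3 genes from squalene to lanosterol averaged 0.0059, 0.11 and 0.061 in Tel+GW+LPS and -0.062, -0.069 and -0.042 in Tel+LPS. The groups did not overlap in this average of 3 genes, or in that of the 9 genes from lanosterol to cholesterol. Neither average has a test. The groups overlapped in the same average over the 7 genes of SREBP control and over all 26 members. For all members it was -0.010, 0.073 and 0.0090 in Tel+GW+LPS and -0.029, -0.038 and -0.0043 in Tel+LPS.

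**Figure D2:**
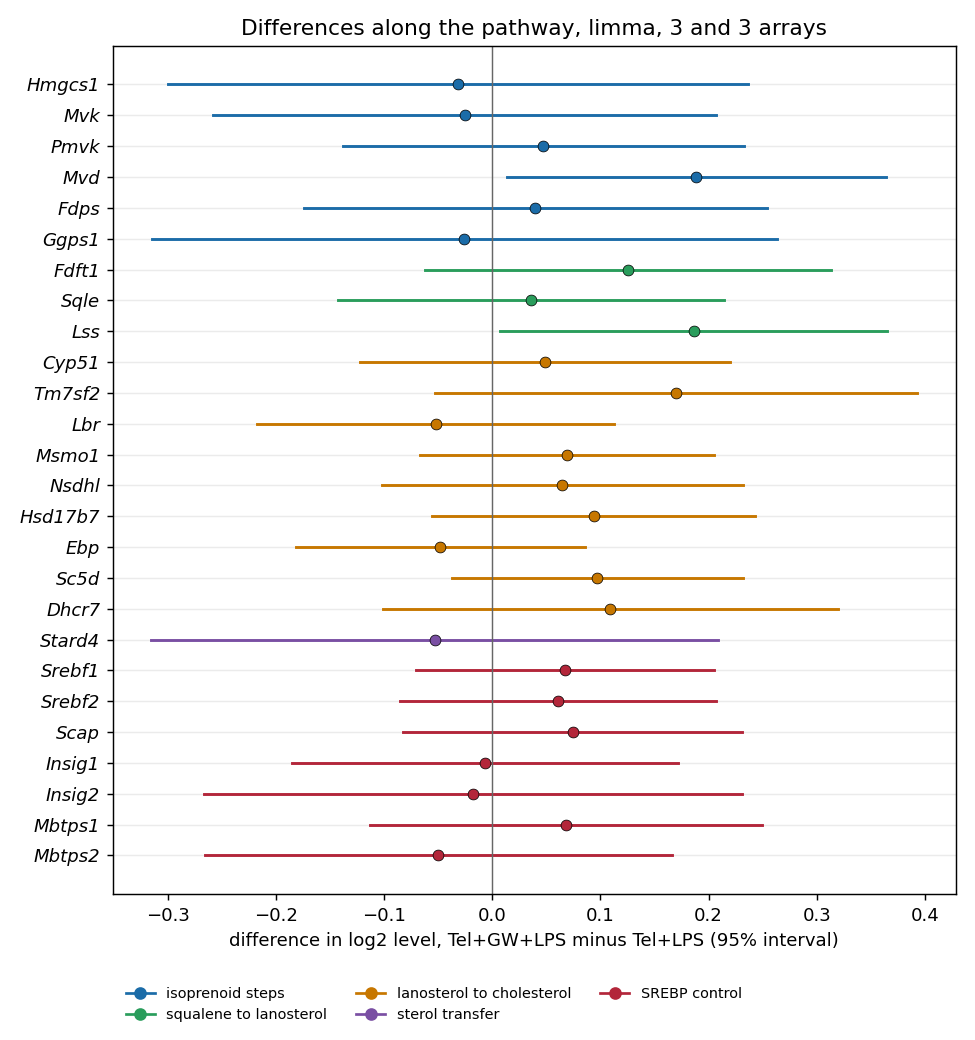
Difference in log2 level, Tel+GW+LPS minus Tel+LPS (x axis), for each of the 26 genes tested, in pathway order from top to bottom. Points are limma estimates from 3 and 3 arrays, bars are 95% intervals and colours give the place in the pathway. The intervals of Mvd (0.014 to 0.36) and Lss (0.0071 to 0.37) lie above 0, those of the other 24 genes include it, and none of the 26 passed after adjustment over all genes.

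Lanosterol is then demethylated and its double bonds are moved or reduced. Cyp51, which encodes the lanosterol demethylase, had 10.50, 10.70 and 10.57 in Tel+GW+LPS and 10.56, 10.47 and 10.60 in Tel+LPS, a difference of 0.049 ± 0.07. Tm7sf2 and Lbr encode sterol reductases of the same step, and the product of Lbr also serves as the lamin B receptor of the nuclear envelope. Tm7sf2 had 6.97, 7.13 and 7.21 in Tel+GW+LPS and 6.78, 6.95 and 7.08 in Tel+LPS, and Lbr had 11.86, 11.84 and 11.94 in Tel+GW+LPS and 11.96, 11.83 and 12.01 in Tel+LPS. The groups overlapped in both genes. The difference was 0.17 ± 0.10 for Tm7sf2, with a 95% interval of -0.053 to 0.39, and -0.053 ± 0.07 for Lbr, with an interval of -0.22 to 0.11. Whether these 2 genes differed from each other in response was not tested.

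The removal of the methyl groups at carbon 4 takes Msmo1, Nsdhl and Hsd17b7. Msmo1, the oxidase gene, had 11.00, 11.05 and 11.02 in Tel+GW+LPS and 10.94, 10.95 and 10.98 in Tel+LPS. The groups did not overlap, and the difference was 0.069 ± 0.06, or 1.05-fold. Nsdhl, the dehydrogenase gene, had 11.11, 11.09 and 11.09 in Tel+GW+LPS and 11.00, 11.16 and 10.94 in Tel+LPS. Its arrays with GW9662 were close together, inside the spread of the others, with a difference of 0.065 ± 0.07. Hsd17b7, the ketoreductase gene, had 9.41, 9.47 and 9.40 in Tel+GW+LPS and 9.28, 9.31 and 9.40 in Tel+LPS. Replicate 3 of Tel+LPS reached the lowest array with GW9662, and the difference was 0.094 ± 0.07.

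The last steps of the route that were measured are those of Ebp, Sc5d and Dhcr7. Ebp, which encodes the sterol isomerase, was the member whose groups were separated downward, with 9.32, 9.31 and 9.31 in Tel+GW+LPS and 9.39, 9.34 and 9.37 in Tel+LPS. Its difference was -0.048 ± 0.06, a ratio of 0.967, and its pooled SD within groups of 0.019 was the smallest among the members. Sc5d, the desaturase gene, had 11.03, 11.07 and 11.03 in Tel+GW+LPS and 10.96, 10.94 and 10.93 in Tel+LPS. These groups did not overlap either, and the difference was 0.097 ± 0.06, or 1.07-fold (95% interval -0.038 to 0.23). Dhcr7, whose product makes cholesterol from 7-dehydrocholesterol, had 10.13, 9.99 and 10.18 in Tel+GW+LPS and 10.08, 10.07 and 9.82 in Tel+LPS. The groups overlapped, with 1 low array without GW9662, and the difference was 0.11 ± 0.09. With 1 array left out Dhcr7 ranged from 0.023, without replicate 3 of Tel+LPS, to 0.16. The 9 genes from lanosterol to cholesterol averaged 0.0035, 0.040 and 0.049 in Tel+GW+LPS and -0.041, -0.033 and -0.019 in Tel+LPS, relative to their mean over the arrays, and 7 of the 9 differences were positive. The groups did not overlap in this average, which has no test.

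**Figure D3:**
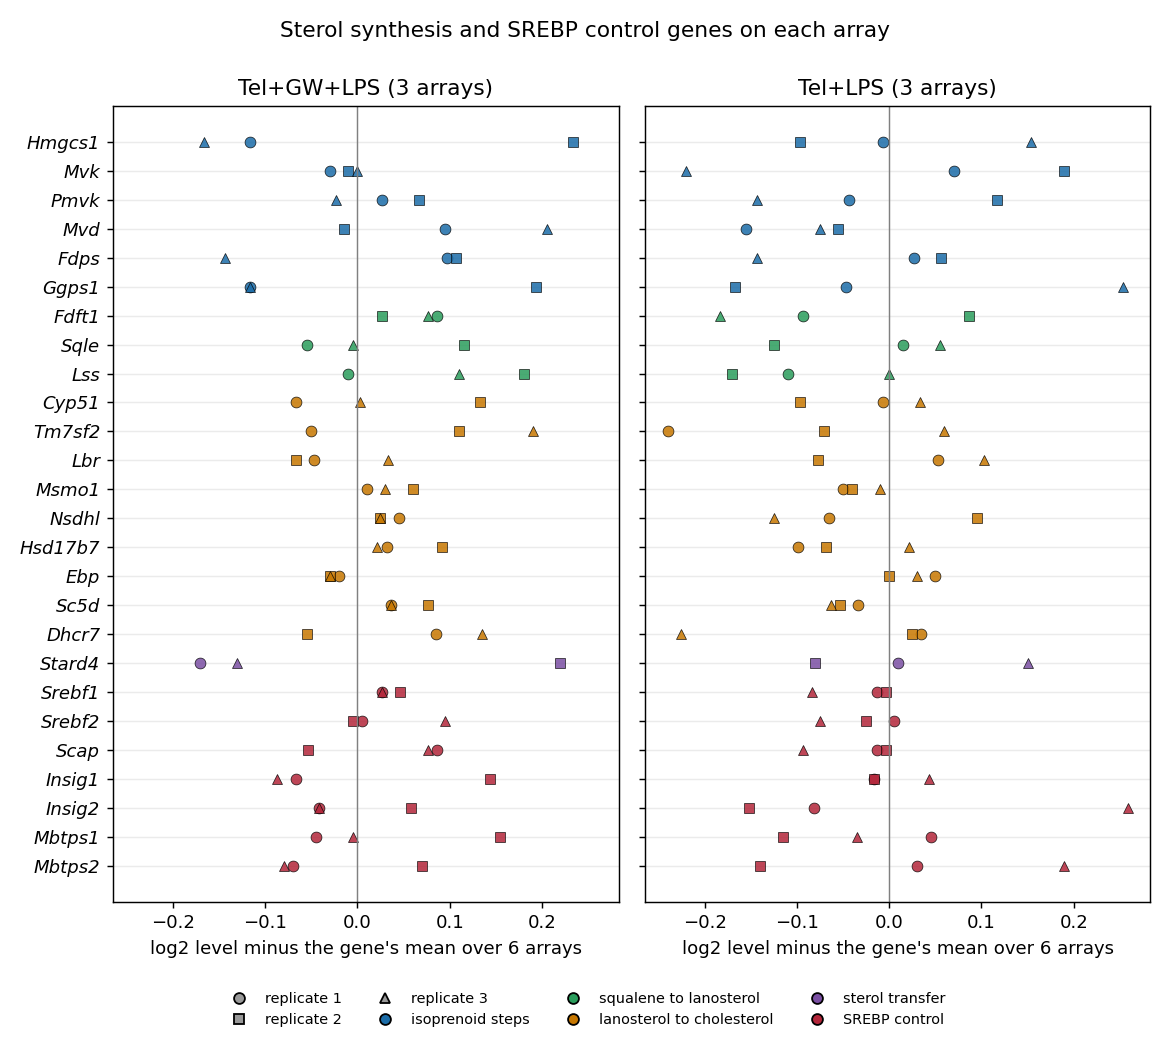
Log2 level of each of the 26 genes on each array, minus that gene's mean over the 6 arrays (x axis), in pathway order, with Tel+GW+LPS in the left panel and Tel+LPS in the right panel. Marker shapes give the replicate and colours the place in the pathway. Squares on the left and triangles on the right, the arrays that stood apart, lie at the high end for Hmgcs1, Ggps1, Sqle, Cyp51, Stard4, Insig1, Insig2 and Mbtps2.

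Among the genes of SREBP control, the 2 factor genes and Scap had small positive differences. Srebf1 encodes SREBP1 and had 8.79, 8.81 and 8.79 in Tel+GW+LPS and 8.75, 8.76 and 8.68 in Tel+LPS. Its groups did not overlap, and the difference was 0.068 ± 0.06, or 1.05-fold (95% interval -0.070 to 0.21). Srebf2 encodes SREBP2 and had 11.08, 11.07 and 11.17 in Tel+GW+LPS and 11.08, 11.05 and 11.00 in Tel+LPS. Here 1 array of each group reached the same 11.08, and the difference was 0.061 ± 0.06. Scap had 10.14, 10.00 and 10.13 in Tel+GW+LPS and 10.04, 10.05 and 9.96 in Tel+LPS, overlapping groups with a difference of 0.074 ± 0.07. A dimmer probe set of Scap differed by 0.026.

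The retention proteins are encoded by Insig1, itself a target of SREBP, and Insig2. Insig1 (probe set 17435584) had 11.83, 12.04 and 11.81 in Tel+GW+LPS and 11.88, 11.88 and 11.94 in Tel+LPS. Apart from replicate 2, the arrays with GW9662 lay below the others, and the difference of the means was -0.0067 ± 0.08 (95% interval -0.19 to 0.17), or 0.0081 after median centring of each array. Insig2 had 8.09, 8.19 and 8.09 in Tel+GW+LPS and 8.05, 7.98 and 8.39 in Tel+LPS. Replicate 3 of Tel+LPS was the high array, and the difference was -0.018 ± 0.11, or 0.076 without both arrays that stood apart. Mbtps1, the gene of the site-1 protease, had 9.45, 9.65 and 9.49 in Tel+GW+LPS and 9.54, 9.38 and 9.46 in Tel+LPS, a difference of 0.068 ± 0.08. Mbtps2, the gene of the site-2 protease, had 10.36, 10.50 and 10.35 in Tel+GW+LPS and 10.46, 10.29 and 10.62 in Tel+LPS, a difference of -0.050 ± 0.09. Both proteases had overlapping groups.

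Stard4, a sterol carrier between membranes and a target of SREBP, had 8.56, 8.95 and 8.60 in Tel+GW+LPS and 8.74, 8.65 and 8.88 in Tel+LPS. It had 1 high array in each group, and the difference was -0.053 ± 0.11 (95% interval -0.32 to 0.21). With 1 array left out it ranged from -0.18, without replicate 2 of Tel+GW+LPS, to 0.019.

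The members did not share 1 order across the arrays. In 11 of the 26, replicate 2 was the highest array of Tel+GW+LPS and replicate 3 the highest of Tel+LPS, the same arrays that stood apart over all genes. These were Hmgcs1, Ggps1, Sqle, Lss, Cyp51, Msmo1, Hsd17b7, Stard4, Insig1, Insig2 and Mbtps2, and the same order was found in 29.0% of all genes tested. Without both arrays that stood apart, 6 of these 11 differences were positive, at 0.024 for Sqle, 0.19 for Lss, 0.021 for Cyp51, 0.067 for Msmo1, 0.11 for Hsd17b7 and 0.076 for Insig2. The other 5 were negative, at -0.086 for Hmgcs1, -0.0092 for Ggps1, -0.12 for Stard4, -0.060 for Insig1 and -0.018 for Mbtps2. In 10 others, replicate 3 was instead the lowest array of Tel+LPS, namely Mvk, Pmvk, Fdps, Fdft1, Nsdhl, Sc5d, Dhcr7, Srebf1, Srebf2 and Scap, beside 35.4% of all genes. Between arrays of the same treatment Hmgcs1 spanned 11.31 to 11.71, more than the largest difference between group means among the members.

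**Figure D4:**
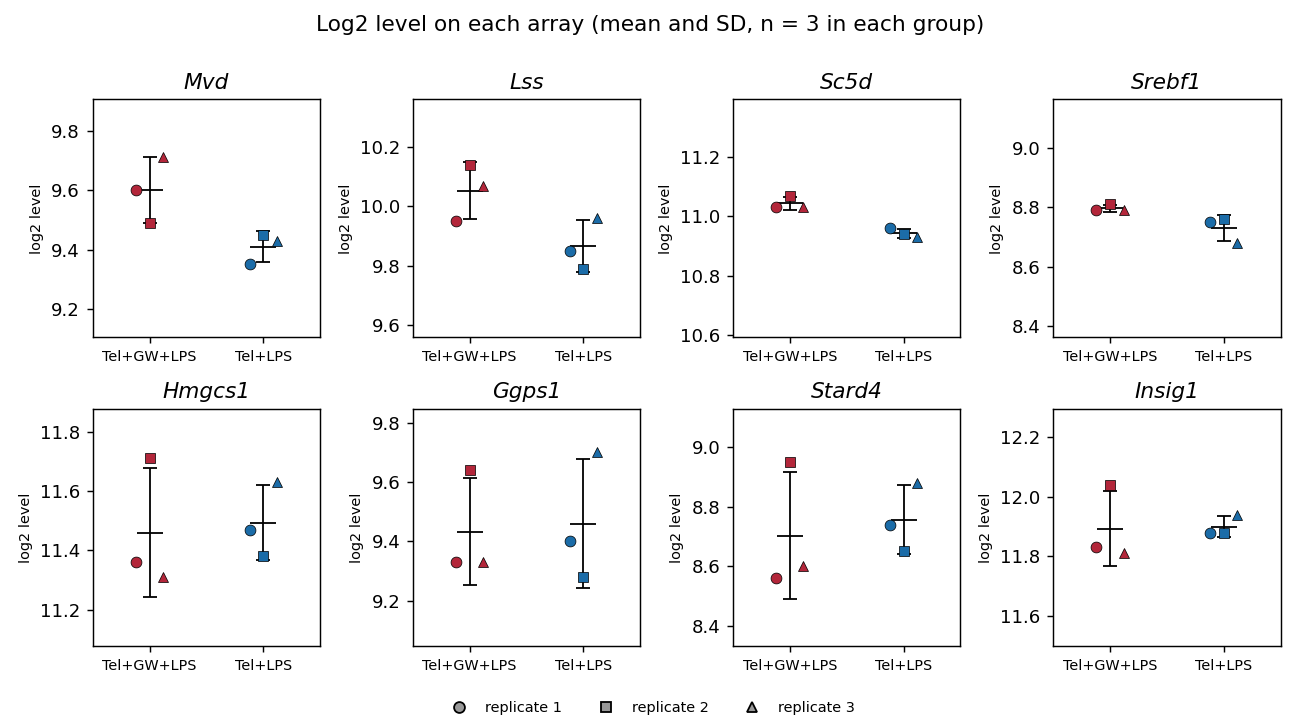
Log2 level (y axis, the same span in each panel) of 8 members on each array, with Tel+GW+LPS left of Tel+LPS, and marker shapes for the replicates. Horizontal bars are group means and vertical bars the SD (n = 3 in each group). In the upper row, Mvd, Sc5d and Srebf1 have groups that do not overlap and those of Lss overlap narrowly. In the lower row, and in Lss of the upper row, replicate 2 of Tel+GW+LPS and replicate 3 of Tel+LPS are the highest of their groups.

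The pooled SD within groups of the members ran from 0.019 for Ebp to 0.20 for Ggps1, and its median was 0.093, where the median gene of the whole test had 0.10. Of the 5 members with separated groups, Mvd had a pooled SD of 0.088, at percentile 40.6 of the genes tested. The other 4 had small spreads: Ebp, Sc5d, Msmo1 and Srebf1 had pooled SDs of 0.019, 0.023, 0.026 and 0.032, at percentiles 0.59, 1.17, 1.66 and 3.36. Their SEs in limma, which moves small variances towards those of the other genes, were 0.058 to 0.060. Lss, whose groups overlapped, had a pooled SD of 0.093, at percentile 44.0.

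Genes that share substrates, regulators or products with the pathway also had 0 members past the threshold, in either direction, in each of 4 lists. Of 11 tested genes of fatty acid synthesis, the branch tied to SREBP1, 5 differences were positive, with a median of -0.014. The groups did not overlap in 1 gene higher and 1 lower with GW9662, beside 4.01% and 5.36% of all genes. The members of this list with the smallest p were Me1, which encodes malic enzyme, a source of NADPH, at 0.21 ± 0.10, and Lpin1, the gene of a phosphatidate phosphatase, at 0.13 ± 0.06 (adjusted p = 0.994 in limma for both). Of 11 genes that use isoprenoids, 7 were positive, with a median of 0.025. Rabggtb, the beta subunit of the transferase that attaches geranylgeranyl groups to Rab proteins, had 8.46, 8.49 and 8.69 in Tel+GW+LPS and 8.66, 8.92 and 8.89 in Tel+LPS, a difference of -0.28 ± 0.10 (adjusted p = 0.979 in limma), and Nus1, a subunit of the dolichol-forming transferase, differed by -0.10 ± 0.09. These groups overlapped.

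Of 10 further genes of sterol sensing and SREBP transport or promoter binding, 5 were positive, with a median of -0.020. Sec24c, a coat protein of vesicles that leave the endoplasmic reticulum, had 10.32, 10.40 and 10.42 in Tel+GW+LPS and 10.24, 10.13 and 10.24 in Tel+LPS, a difference of 0.18 ± 0.07. Nfya, a subunit of the CCAAT-binding factor NF-Y, had 10.93, 10.89 and 11.03 in Tel+GW+LPS and 11.12, 11.15 and 11.02 in Tel+LPS, a difference of -0.15 ± 0.07. Of these 10 genes the groups did not overlap in 1 higher with GW9662, Sec24c, and in 0 lower, beside 4.01% and 5.36% of all genes. The groups of Nfya overlapped. Of 12 genes of sterol transport, ester hydrolysis and oxysterol metabolism, 8 were positive, with a median of 0.068. In this list the groups did not overlap in 2 genes higher and 2 lower with GW9662, beside 4.01% and 5.36% of all genes. Its members with the smallest p were the cholesterol exporter gene Abca1, with 8.90, 9.07 and 9.06 in Tel+GW+LPS and 9.23, 9.12 and 9.40 in Tel+LPS, and Mylip, which encodes a ubiquitin ligase of lipoprotein receptors, with 9.02, 9.23 and 9.09 in Tel+GW+LPS and 9.27, 9.31 and 9.38 in Tel+LPS. The groups of both genes did not overlap, and the differences were -0.24 ± 0.09 for Abca1 and -0.20 ± 0.08 for Mylip (adjusted p = 0.994 in limma for both). Abcg1, an exporter gene that is, like these 2, a target of the oxysterol receptor LXR, is given after its values were seen: it had 9.24, 9.32 and 9.25 in Tel+GW+LPS and 9.23, 9.12 and 9.11 in Tel+LPS. Its groups did not overlap either, in the other direction, with a difference of 0.12 ± 0.06 (adjusted p = 0.994 in limma). Osbp, also of this list, had groups that did not overlap in the same direction as Abcg1, with a difference of 0.083 ± 0.06. A part of LXR in these differences was not tested.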

How the data were processed

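From each of 6 BV2 samples, 300 ng of total RNA was labelled for 1 Affymetrix mouse gene array. Per the file headers, the authors made log2 values by RMA (background correction, quantile normalization over the 6 arrays, median polish) in Expression Console with Affymetrix Power Tools 1.4.1.46, for a newer array version than the one named in the labelling protocol. Quantile normalization hides a shift of most transcripts in 1 direction. The precision rests on the 3 arrays a group. A deposited log2 table with 5 decimals was used, and the deposited 2-decimal table of the same values (largest difference 0.005) was an alternative. A table of the platform's annotation gave 23521 of 41345 probe sets 1 symbol, 1820 several and 16004 none. Each of 22180 genes took its brightest probe set, and was tested where its mean log2 level reached 6.15, which is the median probe set's level. Probe sets have no coordinates here, because their annotation names no build, and the promoter windows carry those of RefSeq.

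The test was limma's moderated fit (version 3.58.1, R 4.3.3), with group as the only term, checked on simulated data, with Benjamini-Hochberg adjustment over all 12212 genes and a threshold of 0.05. Alternatives varied the level filter, probe set choice, scaling, array weights, prior, replicate block and arrays left out. The members and lists were chosen with earlier results of these data known, so lists are given as counts and medians with no test. The text names the 28 members, and of each related list the genes past the threshold or else the 2 with the smallest p. Abcg1 and Osbp are named besides, after their values were seen. Correlations of deviations from the group means were 0.29, -0.45 and -0.12 for equal replicate numbers, and from -0.415 to 0.444 for unequal ones. With 3 arrays in a group these correlations constrain each other, so they cannot show whether replicate numbers paired the samples.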

Additional observations from a re-analysis of the deposited data

How the results depend on the processing

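No member was past the threshold under any of the 16 alternatives, and 13 of the 26 members kept the sign of their difference under every one in which they were tested. Over all genes, limma called 3 higher and 2 lower with GW9662. The counts were 0 higher and 1 lower without the level filter, 4 and 6 after median centring of each array, 4 and 6 after repeated quantile normalization, 27 and 22 with array weights, 6 and 7 with an intensity trend in the prior, and 0 and 0 without both arrays that stood apart, an alternative added after seeing the data, with 944 genes at an unadjusted p under 0.05. Whether equal replicate numbers paired the samples is not known. With the replicate number as a block the counts were 0 and 0, with 379 genes at an unadjusted p under 0.05, beside 543 without the block. With 1 array left out they ranged from 0 to 0 higher and from 0 to 2 lower.

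With 1 array left out, the median difference of the members ranged from 0.016 to 0.066. The differences of single members ranged from -0.16 to 0.043 for Hmgcs1, from -0.14 to 0.062 for Mvk, from -0.012 to 0.12 for Pmvk, from -0.024 to 0.12 for Fdps, from -0.13 to 0.093 for Ggps1, from -0.019 to 0.074 for Sqle and from -0.0053 to 0.093 for Cyp51. They ranged from -0.18 to 0.019 for Stard4, from -0.079 to 0.036 for Insig1, from -0.099 to 0.11 for Insig2 and from -0.13 to 0.031 for Mbtps2. Other changes of sign were to 0.0081 for Insig1 after median centring, to 0.0027 for Ggps1 and 0.019 for Insig1 after repeated quantile normalization, and to -0.014 for Fdps, -0.015 for Sqle, 0.045 for Insig2 and -0.026 for Mbtps1 with array weights. Without both arrays that stood apart, signs turned for Pmvk at -0.035, Fdps at -0.069, Lbr at 0.0088 and Insig2 at 0.076. The cause of these changes was not tested. The smallest adjusted p over the alternatives was 0.118 for Mvd, 0.182 for Tm7sf2 and 0.214 for Lss in limma. The 3 arrays a group limit the precision: the median probe set's level was the lower limit for testing, and the 95% intervals leave room for differences of up to 0.39.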
